A study of Mus musculus with 8 samples.

Results

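The cells described here are epiblast cells of mouse chimaeras collected at embryonic day 7.5 (E7.5). They were chosen from the measured transcripts of each cell. A member had at least 1500 unique molecular identifiers (UMIs, counted transcript molecules), at most 30% of them from mitochondrial genes and at most 35% from ribosomal protein genes. It had at least 1 UMI of Pou5f1 and at least 1 UMI of 3 or more of Utf1, Slc7a3, Dnmt3b, Fgf5 and Pou3f1, and no UMI of the primitive streak genes T, Mixl1 and Mesp1. This rule selected 1886 of the 12655 E7.5 cells that passed the quality limits, out of 49866 such cells at both stages, with 795 members in the Tet-TKO library and 1091 in the WT host library.

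The study injected ES cells that lack Tet1, Tet2 and Tet3 (Tet-TKO) into wild-type blastocysts and profiled the resulting chimaeras by droplet-based 3′ single-cell RNA sequencing. The Tet-TKO cells came from ES cells of a mixed C57BL/6J-129Sv background and carried a nuclear H2B-tdTomato reporter driven by the CAG promoter. The WT host cells came from the recipient C57BL/6J blastocysts, carried no reporter and developed in the same embryos. Embryos were pooled, and viable single cells were sorted into tdTomato-positive and tdTomato-negative fractions. Each genotype had 1 library at E7.5, and a later stage, E8.5, had 4 of Tet-TKO and 2 of WT host. Genotype, strain background and origin from cultured ES cells differed together between the groups, so they cannot be told apart here. The sex of the cells is not in the labels and may differ between the groups as well.

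The epiblast is the pluripotent epithelium of the early embryo from which all germ layers arise during gastrulation. Its cells keep Pou5f1 while they leave the naive state, gain primed markers such as Fgf5 and Otx2, and then either enter the primitive streak under Nodal, Wnt, BMP and FGF signals or take an ectodermal fate. TET enzymes oxidise 5-methylcytosine in DNA, the first step of active demethylation, while DNMT3A and DNMT3B place new methyl groups, which in the embryo happens mainly in the epiblast.

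The 8 libraries held between 1238 and 9751 cell barcodes and between 65601218 and 136982886 UMIs. Tet-TKO members were deeper, with a median of 22718 UMIs against 14264 in WT host members, and all members together gave 17054933 and 16456787 UMIs. No barcode of a member occurred in both E7.5 libraries. A tdTomato UMI was found in 552 of 795 Tet-TKO members (69.4%) and in 2 of 1091 WT host members (0.183%). The order is that of the sort labels, but the remaining Tet-TKO members showed no tdTomato UMI. Whether the reporter went undetected in them or some are host cells was not tested. The knocked-out genes themselves do not check the labels, because a transcript with a deletion can still be counted at its 3′ end. Tet1 stood at 20.9 CPM (UMIs of the summed members, scaled to a common library total) in Tet-TKO and 45.4 CPM in WT host members. Tet2 stood at 1.23 and 1.64 CPM and Tet3 at 11 and 13.9 CPM. With 1 library per genotype nothing at E7.5 was tested. Intervals given for this stage are exact 95% Poisson or binomial intervals and cover counting error only.

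Genes outside the rule were compared with the label. Otx2, a transcription factor of the primed epiblast, had a higher summed level the more of the 5 markers a cell held. With Pou5f1 present and the streak genes absent, the Tet-TKO level of Otx2 was 23.4 CPM in the 162 cells with 2 markers, just outside the rule, and 44.5 CPM in the 145 cells with 3 markers, just inside it, and reached 132 CPM in the 462 cells with all 5. WT host cells gave 45.7 CPM in 333 cells with 2 markers, 57.7 CPM in 456 cells with 3 and 134 CPM in 199 cells with 5. The kinase gene Pim2 followed the same order, from 33.8 CPM at 2 to 226 CPM at 5 markers in Tet-TKO and from 101 CPM at 2 and 118 CPM at 3 to 254 CPM at 5 markers in WT host cells. Sox2, a core pluripotency factor, did so in Tet-TKO, but in WT host cells it was at 178 CPM with 4 markers and 150 CPM with 5. Detection of a marker also depends on depth, and the Tet-TKO cells with 2 markers had a median of 7778 UMIs against 24422 in those with 5. In WT host cells those medians were 12691 and 14984 UMIs.

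**Figure D1:**
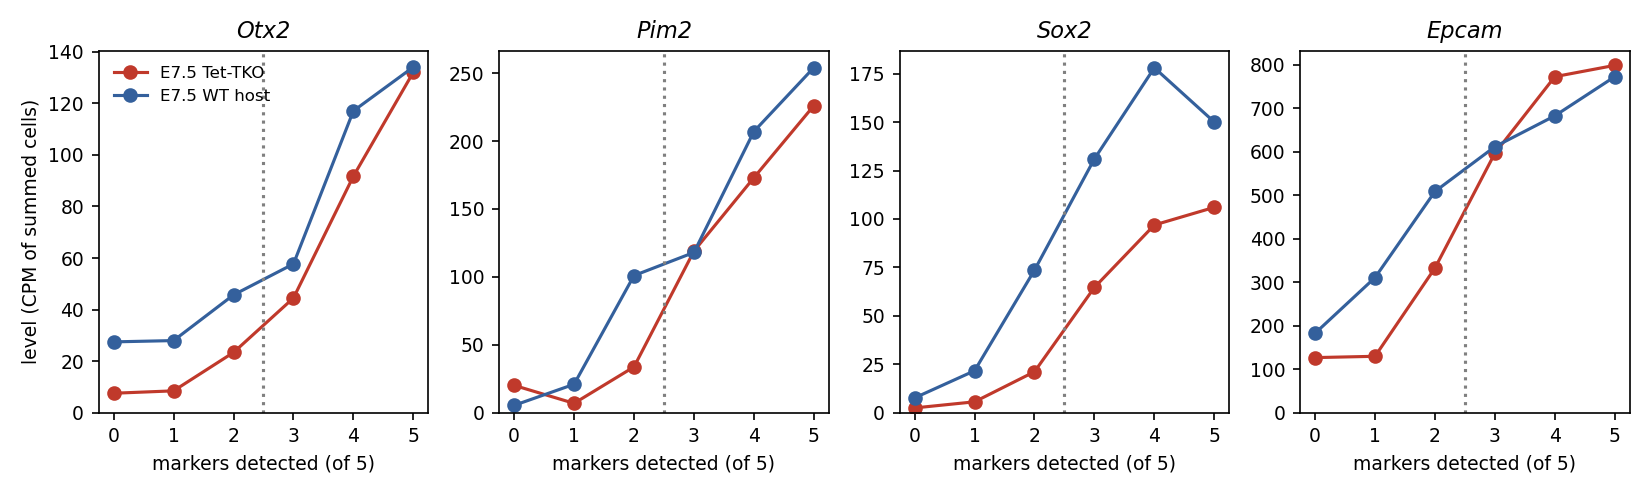
Summed level in CPM (y axis) of 4 genes that the rule did not use, against the number of the 5 rule markers detected per cell (x axis), in E7.5 cells with Pou5f1 and without T, Mixl1 and Mesp1. Red points are the Tet-TKO library, blue points the WT host library, and cells right of the dotted line are members. Otx2 reached 132 CPM in Tet-TKO and 134 CPM in WT host cells with all 5 markers.

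The label held less well in the WT host library, where 155 of 1091 members (14.2%) also carried extraembryonic markers, against 4 of 795 (0.503%) in Tet-TKO. A cell was called extraembryonic-marked when it had UMIs of at least 2 of 6 extraembryonic (ExE) ectoderm genes (Elf5, Wnt7b, Rhox6, Rhox9, Ascl2 and Tfap2c) or of at least 4 of 10 visceral endoderm genes. By these criteria, 129 WT host members were marked by ExE ectoderm genes and 30 by visceral endoderm genes. Among all kept cells, 36.9% of WT host and 2.83% of Tet-TKO cells were marked. The paper found no injected tdTomato-positive cells in the ExE ectoderm, with WT control ES cells as with Tet-TKO ones. For the ExE ectoderm marks, such a difference is thus described there for injected cells of either genotype. Several rule markers were not particular to the epiblast: in extraembryonic-marked WT host cells Utf1 reached 326 CPM and Pou3f1 328 CPM, while Pou5f1 stood at 33.2 CPM, Slc7a3 at 3.56 CPM and Fgf5 at 9.31 CPM. Another 1159 WT host cells had 3 of the 5 markers without Pou5f1, and 1113 of them were extraembryonic-marked.

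These marks moved with the genotype comparison. Over the members, the summed level of the 10 visceral endoderm markers was 25.6 CPM in Tet-TKO and 347 CPM in WT host, and that of the 8 ExE ectoderm markers was 24.4 and 394 CPM. Without the marked cells the WT host sums were 103 and 33.3 CPM. Elf5, which encodes a trophoblast transcription factor, was at 0.352 CPM in Tet-TKO and 48.5 CPM in WT host members, and at 2.38 CPM in WT host members without the marked cells. The 8 erythroid markers summed to 1.52 and 29.6 CPM. The counts of genes are therefore also given without the extraembryonic-marked cells, which left 791 Tet-TKO and 936 WT host members, and so is the ratio of each named gene that they moved across the 2-fold line or turned.

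Epiblast cells took a like share of both libraries as counted, but the order of the 2 genotypes depended on depth and on which other cells were in the denominator. Members were 14.4% of kept Tet-TKO cells (95% interval 13.5 to 15.4) and 15.3% of kept WT host cells (14.4 to 16.1), a difference of -0.855 percentage points (-2.10 to 0.398). When each cell was thinned to 5000 UMIs the shares were 15.1% in Tet-TKO and 9.26% in WT host. This left out 738 Tet-TKO and 480 WT host cells of lower depth. The rule was applied anew to the thinned counts. A cell that lost its T, Mixl1 and Mesp1 UMIs by thinning could thus become a member, and one that lost markers could drop out. How many thinned members were streak-marked at full depth was not counted. Shares and ratios given at 5000 UMIs per cell therefore come from a changed set of cells, not from depth alone. Without extraembryonic-marked cells, which made up much of the WT host denominator, the shares were 14.8% and 20.8%. With both changes they were 15.5% and 13.2%.

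More of the Tet-TKO cells that held epiblast markers also held primitive streak transcripts. Of the cells with Pou5f1 and at least 3 of the 5 markers, 1119 of 1914 Tet-TKO cells (58.5%, 56.2 to 60.7) and 334 of 1425 WT host cells (23.4%, 21.3 to 25.7) had a UMI of T, Mixl1 or Mesp1 and so were not members. T, the founding mesoderm factor, was detected in 46.1% and 18.9% of these cells, Mixl1 in 29.6% and 6.60%, and Mesp1 in 33.3% and 7.37%. Just outside the rule stood 268 Tet-TKO and 139 WT host cells with exactly 1 UMI of these genes. After thinning to 5000 UMIs the streak-marked share was 29.0% in Tet-TKO and 7.22% in WT host.

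A streak UMI was also found in cells with marks of another type. ExE ectoderm-marked WT host cells had one in 20.4% of 1934 cells (median 16608 UMIs, against 14687 in the WT host cells with epiblast markers) and in 8.11% after thinning. The thinned WT host streak-marked share was not above that of these cells, whose type rests on the marks alone. Only 94 Tet-TKO cells carried ExE ectoderm marks, and 76.6% of them had a streak UMI. What those cells are was not tested, so they give no background for Tet-TKO. Free RNA was estimated as the visceral endoderm share of UMIs in members over that in all kept cells of the same library. This gave 44.6% for Tet-TKO and 13.7% for WT host members. The Tet-TKO value rests on only 436 such UMIs in members and 6031 in kept cells, against 262457 in WT host kept cells. With so few visceral endoderm transcripts in the library the ratio can run high, so 44.6% is no firm share of free RNA. Without the marked members these estimates were 43.0% and 4.05%. The part of free RNA in the streak-marked shares was not tested.

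**Figure D2:**
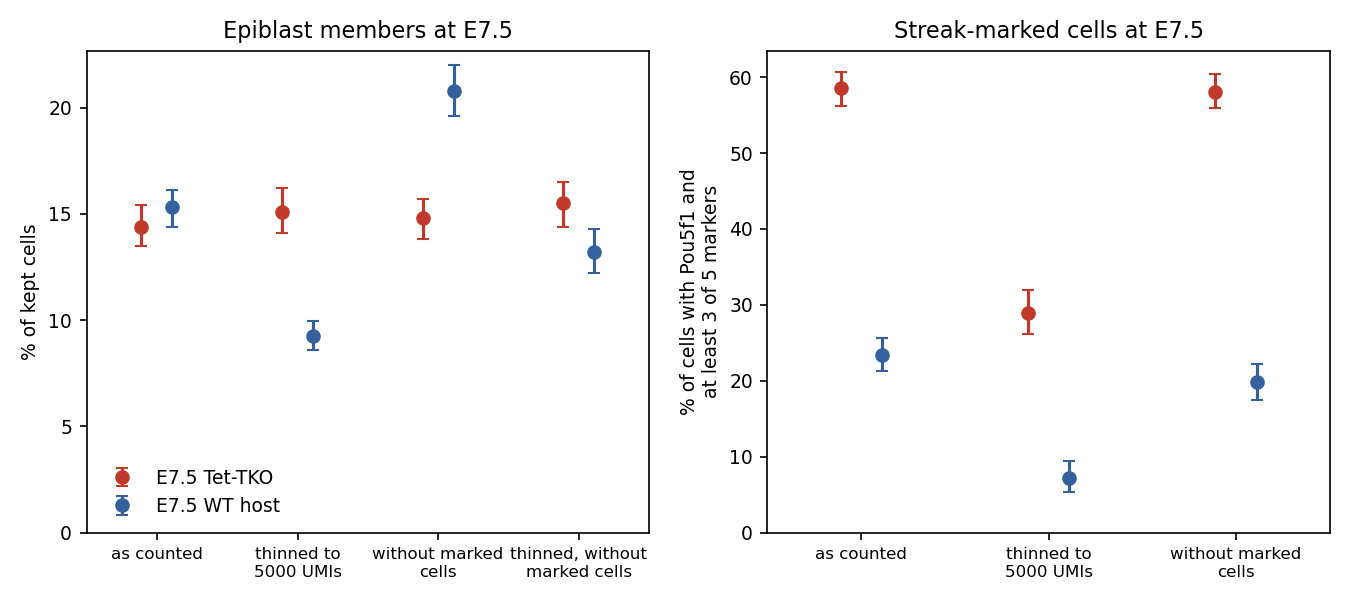
Left, epiblast members as a percentage of kept cells at E7.5; right, streak-marked cells as a percentage of cells with Pou5f1 and at least 3 of the 5 markers. Points are the 1 Tet-TKO (red) and 1 WT host library (blue) and bars are exact 95% binomial intervals. Tet-TKO members stay between 14.4% and 15.5% while WT host members range from 9.26% to 20.8%, and the streak-marked share is higher in Tet-TKO in each setting shown. The rule was applied anew to thinned counts, so the members there are not all the same cells.

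Expression was compared between the summed members of both libraries, with a ratio past 2-fold taken as the line, as 1 library per genotype allows no test. Of 7048 genes with a mean of at least 10 CPM, 66 were past 2-fold higher in Tet-TKO (0.936%), tdTomato among them, and 162 were past 2-fold lower (2.30%), together 228 (3.23%). The median log2 ratio of all measured genes was -0.07. Without the extraembryonic-marked cells 69 of 6980 genes were higher (0.989%) and 97 lower (1.39%). Past 2-fold with and without those cells were 61 higher and 81 lower genes, so 81 of the 162 lower genes were not past the line without the marked cells. The higher genes were 28.9% of all calls, and 41.6% without marked cells. Scaling by trimmed mean of M-values (TMM), which moved the median to 0.03, gave 87 higher and 135 lower genes, so that 39.2% were higher. Of the 45 genes past 2-fold that are named here, 29 were past it in each of 10 alternative settings. That count took the size of the ratio and not its direction, and Tex19.1 was past the line in the opposite direction without marked cells.

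**Figure D3:**
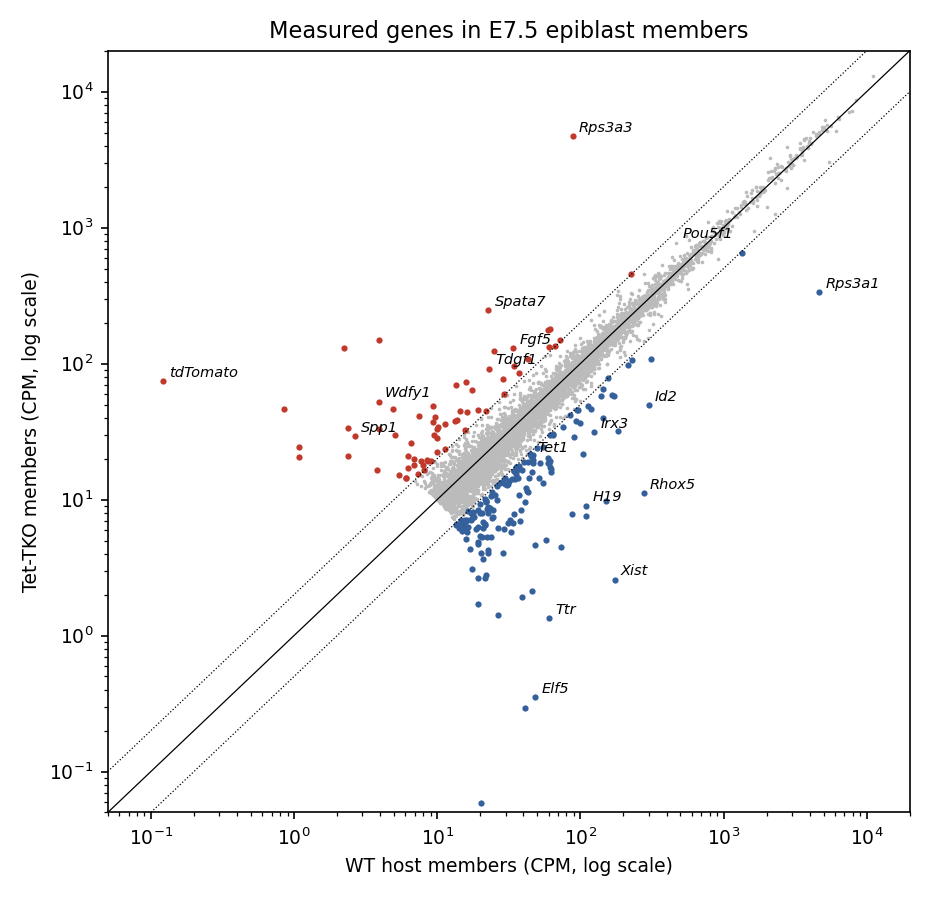
Level of each of the 7048 measured genes in WT host (x axis) and Tet-TKO members (y axis) at E7.5, in CPM on log scales. Each point is a gene, the solid line marks equal levels and the dotted lines 2-fold, with 66 genes above (red) and 162 below (blue). Rps3a3 and Rps3a1 lie far off the line in opposite directions.

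Among the genes that defined the members, Fgf5, a growth factor that marks the primed epiblast, differed most. Its level was 130 CPM in Tet-TKO and 34.0 CPM in WT host members, a log2 ratio of 1.94 (1.80 to 2.08), or 1.81 without marked cells. Pou5f1, the core pluripotency factor, stood at 776 and 466 CPM, a log2 ratio of 0.73, and Utf1, a chromatin-associated factor of pluripotent cells, at 453 and 279 CPM, a log2 ratio of 0.70. The arginine transporter gene Slc7a3 had 121 and 88.6 CPM. The de novo methyltransferase gene Dnmt3b had 1024 and 1139 CPM, and Pou3f1, a POU factor of the primed epiblast and neural progenitors, 281 and 264 CPM. These 6 genes chose the cells, and the values are a description.

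Over 17 gene lists drawn up from known pathways and lineages, 290 genes were listed and 153 measured. Of these, 13 were past 2-fold higher (8.5%, against 0.936% of all measured genes) and 21 lower (13.7%, against 2.30%). Without marked cells these counts were 13 and 16. The lists were chosen with earlier results of these data known, so their shares are no independent evidence.

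A few pluripotency genes had several times more transcript in Tet-TKO, while most differed by less than 2-fold. Of 11 measured pluripotency factors, 3 were past 2-fold higher and none lower, with a median log2 ratio of -0.13. The highest was Dppa4, a chromatin-bound factor of pluripotent cells, at 48.5 CPM in Tet-TKO and 9.30 CPM in WT host members, a log2 ratio of 2.38 (2.13 to 2.64). Most of its WT host transcripts were in marked cells, and without those the WT host level was 0.891 CPM. Tdgf1, the Nodal co-receptor Cripto, had 91.8 and 23.1 CPM, a log2 ratio of 1.99 (1.83 to 2.16) and of 1.79 without marked cells, although subtraction of an estimated free-RNA background turned its direction, to -0.57. Foxd3, a repressor needed to maintain the epiblast, had 32.8 and 10.0 CPM, a log2 ratio of 1.71 (1.46 to 1.97). L1td1, an RNA-binding protein gene of pluripotent cells, had 211 and 119 CPM, below 2-fold.

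Of the core factors that the rule did not use, Sox2, the partner of Pou5f1, was at 99.6 CPM in Tet-TKO and 154 CPM in WT host, a log2 ratio of -0.63, and Nanog at 19.5 and 21.3 CPM. Of the 15 naive pluripotency genes only 2 were measured, and both were past 2-fold higher. Dppa5a, an RNA-binding protein gene of ES cells, had 73.3 and 16.0 CPM, a log2 ratio of 2.19 (2.0 to 2.39). Spp1, which encodes the secreted protein osteopontin, had 29.3 and 2.67 CPM, a log2 ratio of 3.45 (3.01 to 3.93). It reached the mean level required of measured genes only through Tet-TKO, so the count of 2 is partly set by that limit. All 15 naive genes summed to 132 CPM in Tet-TKO and 94.8 CPM in WT host members, or 130 and 51.4 CPM without marked cells. Over all members, Dppa5a and Spp1 gave most of the Tet-TKO sum, and the unmeasured genes most of the WT host sum. The list as a whole was thus not shown to be higher. Of 13 measured primed genes 1 was higher, the ETS factor gene Etv5, at 32.5 and 15.6 CPM, and none was lower, while without marked cells 1 gene was lower. The log2 ratio of Etv5 was 1.06, but 0.87 at 5000 UMIs per cell, 0.92 with equal numbers of cells and 0.78 when streak-marked cells were included. Otx2 had 114 and 96.8 CPM.

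The ligand gene Nodal and 2 feedback genes of the FGF pathway were higher in Tet-TKO members. Nodal, the ligand that patterns the epiblast, had 18.1 and 6.93 CPM, a log2 ratio of 1.39 (1.07 to 1.71). It was the only one of 4 measured genes on its pathway list past the line. The co-receptor gene Tdgf1 was listed with the pluripotency factors instead. The receptor and SMAD genes of that pathway lay slightly below equality, with Smad4 at 77.6 and 102 CPM. In the FGF pathway, 2 of 8 measured genes were higher and 1 lower. Both higher genes encode feedback inhibitors of the ERK cascade: Spry2 had 64.1 and 17.5 CPM, a log2 ratio of 1.87 (1.68 to 2.06), and Dusp6 had 38.4 and 13.8 CPM, a log2 ratio of 1.48 (1.26 to 1.70). The ligand gene Fgf8 had 52.5 and 32.1 CPM, a log2 ratio of 0.71, but subtraction of free RNA left no Tet-TKO counts of it above the floor of 3. The receptor gene Fgfr2 was the lower one, at 6.51 and 21.7 CPM, a log2 ratio of -1.74 and of -1.35 without marked cells.

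Of 4 measured anterior and neural ectoderm genes 2, Irx3 and Gbx2, were past 2-fold lower in Tet-TKO members. Irx3, an Iroquois homeobox gene of the neural plate, had 31.5 CPM in Tet-TKO and 125 CPM in WT host members, a log2 ratio of -1.98 (-2.12 to -1.85). Gbx2, which marks the prospective hindbrain, had 6.27 and 16.3 CPM, a log2 ratio of -1.38. Irx5, the neighbour of Irx3 in the same Iroquois cluster and not on the list, had 9.56 and 41.1 CPM, a log2 ratio of -2.10. Six3, a forebrain factor, had 28.7 and 22.8 CPM and Crabp2, a retinoic acid carrier, 109 CPM in both.

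Of 8 measured Wnt pathway genes, 2 were past 2-fold lower and none higher. Sfrp1, a secreted Wnt antagonist, had 45.3 and 96.9 CPM, a log2 ratio of -1.10 (-1.22 to -0.97) that was -0.99 with TMM scaling and -0.89 with free RNA subtracted, and Sp5, a direct Wnt target, 7.04 and 17.3 CPM, a log2 ratio of -1.29. The ratio of Sp5 was -0.60 at 5000 UMIs per cell and 0.46 when streak-marked cells were included. Nkd1, a Wnt feedback gene, had 9.67 and 18.1 CPM and passed the line only without marked cells, at a log2 ratio of -1.04. Among 4 measured streak and mesoderm genes, 3 were lower, but only Nkx1-2, a homeobox gene of the posterior epiblast, was so without marked cells. It had 5.34 and 20.5 CPM, a log2 ratio of -1.94 (-2.29 to -1.60) and of -2.16 without them, but of -0.98 at 5000 UMIs per cell.

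Of the other streak and BMP genes past the line, Cdx2, Hand1 and Bmp4 were not past it without the marked cells, while Id2 was. Cdx2, a caudal factor that trophoblast also uses, had a log2 ratio of -1.07 and of -0.51 without marked cells. For Hand1, a factor of extraembryonic mesoderm and trophoblast, these were -1.26 and -0.16. Bmp4, a ligand of the ExE ectoderm, had -1.50, and 0.20 without marked cells. Id2, a BMP target and helix-loop-helix inhibitor, kept a log2 ratio of -1.49 after -2.60 over all members, and its level in WT host members was 300 CPM with and 134 CPM without the marked cells. Eomes, a T-box factor of streak and trophoblast, had 0.18 and, without marked cells, 0.94. Over all members, 2 of 10 measured BMP genes and 3 of 4 streak genes were thus past the line, and without the marked cells 1 of 9 and 1 of 4.

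Of 14 measured genes of the DNA methylation machinery none was past 2-fold higher and 3 were lower, 2 of them without marked cells. Tdg, the glycosylase that excises oxidised methylcytosine, had 38.1 CPM in Tet-TKO and 92.9 CPM in WT host members, a log2 ratio of -1.29 (-1.42 to -1.15). Tet1, itself one of the deleted genes, had a log2 ratio of -1.12 (-1.31 to -0.94), and of -0.85 with free RNA subtracted. Without marked cells the ratios of Tdg and Tet1 were -1.33 and -1.20. Gadd45b, a stress-induced gene linked to demethylation, had -2.14 over all members and -0.81 without the marked cells. The maintenance methyltransferase gene Dnmt1 had 90.4 and 98.1 CPM, Dnmt3a 72.8 and 72.5 CPM, and Uhrf1, which guides DNMT1, 114 and 152 CPM.

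Imprinted genes, which are expressed from 1 parental allele under the control of DNA methylation, lay on both sides, with 2 of 17 higher and 4 lower. Zdbf2, a paternally expressed gene, had 85.5 and 37.0 CPM, a log2 ratio of 1.21 (1.07 to 1.35), or 0.99 with free RNA subtracted. Snrpn, another paternally expressed gene, had 458 and 227 CPM, a log2 ratio of 1.02, or 0.86 without marked cells. Grb10, which encodes a growth-inhibiting adaptor, had 28.9 and 90.2 CPM, a log2 ratio of -1.64 (-1.79 to -1.49), and Cdkn1c, a maternally expressed cell cycle inhibitor gene, 16.0 and 46.1 CPM, a log2 ratio of -1.52. H19, the maternally expressed long noncoding RNA, had 9.03 and 110 CPM, a log2 ratio of -3.60 and of -2.05 without marked cells. Peg10, a placental retrotransposon-derived gene, had -2.41, and -0.84 without them.

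The remaining lists had at most 2 genes past the line. Among 14 epithelium and adhesion genes Crb3, an apical polarity gene, was higher at 95.7 and 34.2 CPM, a log2 ratio of 1.48, and Zeb2, a repressor of Cdh1, lower at 13.5 and 28.4 CPM, a log2 ratio of -1.08 and of -0.44 when streak-marked cells were included. Cdh1 itself, which encodes E-cadherin, had 80.0 and 79.6 CPM. Of 20 measured genes of glycolysis and amino acid transport only Slc2a3, a glucose transporter gene, was lower, at 98.5 and 215 CPM, a log2 ratio of -1.13. Without marked cells it was at -0.98 and none was lower, while Slc7a7, an amino acid transporter gene, was higher at 1.34. Of 16 cell cycle and p53 target genes only Ccnd2, which encodes cyclin D2, was lower, at 45.7 and 94.4 CPM, a log2 ratio of -1.05 and of -0.94 with TMM scaling. Only 2 of 19 germline genes were measured, and both passed the line. Sycp3, a gene of the meiotic chromosome axis, had 19.2 and 7.72 CPM, while Tex19.1, a retrotransposon-control gene used by the placenta, had a log2 ratio of -2.21 over all members and 1.50 without marked cells. Sycp3 reached the mean level required of measured genes only through Tet-TKO, and Tex19.1 only with the marked cells included. That limit favours genes that differ, so these 2 genes say nothing about the germline list as a whole. None of 4 surface ectoderm and 2 primordial germ cell genes passed the 2-fold line.

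The promoters of 5 genes past 2-fold are shown with their CG dinucleotides, because CG is the main site of methylation that TET enzymes act on. Each runs from 250 bases before to 50 bases after the annotated start in RefSeq (GRCm38.p6), 5′ to 3′ on the strand of the gene, with every CG in capitals. Fgf5 lies at chr5:98253934-98254233 on the plus strand with 29 CG, Foxd3 at chr4:99656049-99656348 on the plus strand with 25, Tdgf1 at chr9:110946109-110946408 on the minus strand with 7, Irx3 at chr8:91801605-91801904 on the minus strand with 14, and Nkx1-2 at chr7:132599588-132599887 on the minus strand with 21.
Fgf5: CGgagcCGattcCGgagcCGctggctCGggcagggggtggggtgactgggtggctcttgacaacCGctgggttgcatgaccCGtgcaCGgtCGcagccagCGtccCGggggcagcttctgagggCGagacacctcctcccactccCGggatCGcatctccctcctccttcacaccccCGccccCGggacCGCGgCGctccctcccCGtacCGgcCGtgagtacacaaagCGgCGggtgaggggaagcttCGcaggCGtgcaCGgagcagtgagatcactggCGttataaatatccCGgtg
Foxd3: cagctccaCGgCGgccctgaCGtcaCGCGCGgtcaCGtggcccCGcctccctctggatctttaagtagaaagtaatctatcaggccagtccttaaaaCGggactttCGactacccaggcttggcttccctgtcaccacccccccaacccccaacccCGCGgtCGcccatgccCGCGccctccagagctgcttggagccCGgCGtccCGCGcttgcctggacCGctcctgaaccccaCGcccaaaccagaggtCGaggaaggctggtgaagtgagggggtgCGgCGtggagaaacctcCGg
Tdgf1: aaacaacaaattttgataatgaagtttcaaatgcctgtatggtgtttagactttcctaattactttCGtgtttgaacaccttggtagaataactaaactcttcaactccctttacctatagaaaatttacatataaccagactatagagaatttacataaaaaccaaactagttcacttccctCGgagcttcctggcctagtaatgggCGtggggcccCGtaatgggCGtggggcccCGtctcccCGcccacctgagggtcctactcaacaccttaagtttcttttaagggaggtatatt
Irx3: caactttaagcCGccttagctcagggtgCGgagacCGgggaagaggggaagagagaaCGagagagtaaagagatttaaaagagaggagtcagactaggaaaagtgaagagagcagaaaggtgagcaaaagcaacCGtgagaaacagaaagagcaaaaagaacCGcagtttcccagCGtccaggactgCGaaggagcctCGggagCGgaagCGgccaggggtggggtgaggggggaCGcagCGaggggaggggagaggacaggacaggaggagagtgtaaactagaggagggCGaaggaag
Nkx1-2: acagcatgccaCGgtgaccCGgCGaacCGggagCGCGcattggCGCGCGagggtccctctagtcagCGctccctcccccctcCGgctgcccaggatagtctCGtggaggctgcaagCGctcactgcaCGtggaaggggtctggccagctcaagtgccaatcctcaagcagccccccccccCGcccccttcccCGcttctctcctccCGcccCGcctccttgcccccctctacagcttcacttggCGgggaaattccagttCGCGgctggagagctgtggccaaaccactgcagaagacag
Over all 27025 promoters of this length the median was 7 CG (quartiles 3 and 21.0), and 94.2% held at least 1, a count that is the same on both strands. Over the 5622 of 7048 measured genes that were matched, the median was 23 CG (quartiles 16 and 30). Tdgf1 and Irx3 lay below that lower quartile. A comparison of promoter CG between all higher and lower genes is void, because only 39 of the 61 higher and 62 of the 81 lower genes were matched to this table. No methylation was measured in these libraries. In erythroid and other cells, the paper found TET-dependent demethylation at distal regulatory regions and hardly any effect at promoters. Whether promoter CG has a part in the ratios given here was not tested.

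Some of these genotype ratios were as large in cells outside the members and some were not. The ratio in members was set beside that in all other kept cells without extraembryonic marks, a mixture that differs in cell types between the libraries. This mixture includes streak-marked cells, 1099 in Tet-TKO and 231 in WT host, which hold Pou5f1 and epiblast markers. It is thus not a set of cells without epiblast traits. Of the 66 higher genes, 39 were also past 2-fold higher there, and of the 162 lower genes, 66 were also lower. In the streak-marked cells alone, 50 of the higher and 115 of the lower genes were past 2-fold in the same direction, but 103 of the 334 WT host and 20 of the 1119 Tet-TKO streak-marked cells were extraembryonic-marked. With marked cells left out of members and of streak-marked cells, these counts were 43 of 69 and 56 of 97. With them left out of the members, 39 of the 69 and 48 of the 97 were past the line in the other kept cells. The share of all measured genes past 2-fold in these other cells was not counted, so the overlaps have no background to be read against. Outside the members Tdgf1 had a log2 ratio of 2.10, Foxd3 2.06, Dppa5a 2.29, Spp1 3.0 and Nodal 1.83. On the lower side Irx3 had -1.39, Sfrp1 -1.23, Tet1 -1.10, Tdg -1.11 and Grb10 -1.10.

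Others were under 2-fold outside the members. Crb3, at 1.48 in members, had 0.28 outside, Dusp6 0.67, Etv5 0.58 and Hopx, a homeodomain-only cofactor gene with 40.7 and 9.72 CPM in members, 0.75 after a log2 ratio of 2.07 inside. Of the lower genes, Sp5 had 0.20 outside, Zeb2 -0.37, Fgfr2 -0.41, Gbx2 -0.81 and Nkx1-2 -0.91. Whether the ratio differed between members and other cells was not tested, as each rests on the same 2 libraries.

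**Figure D4:**
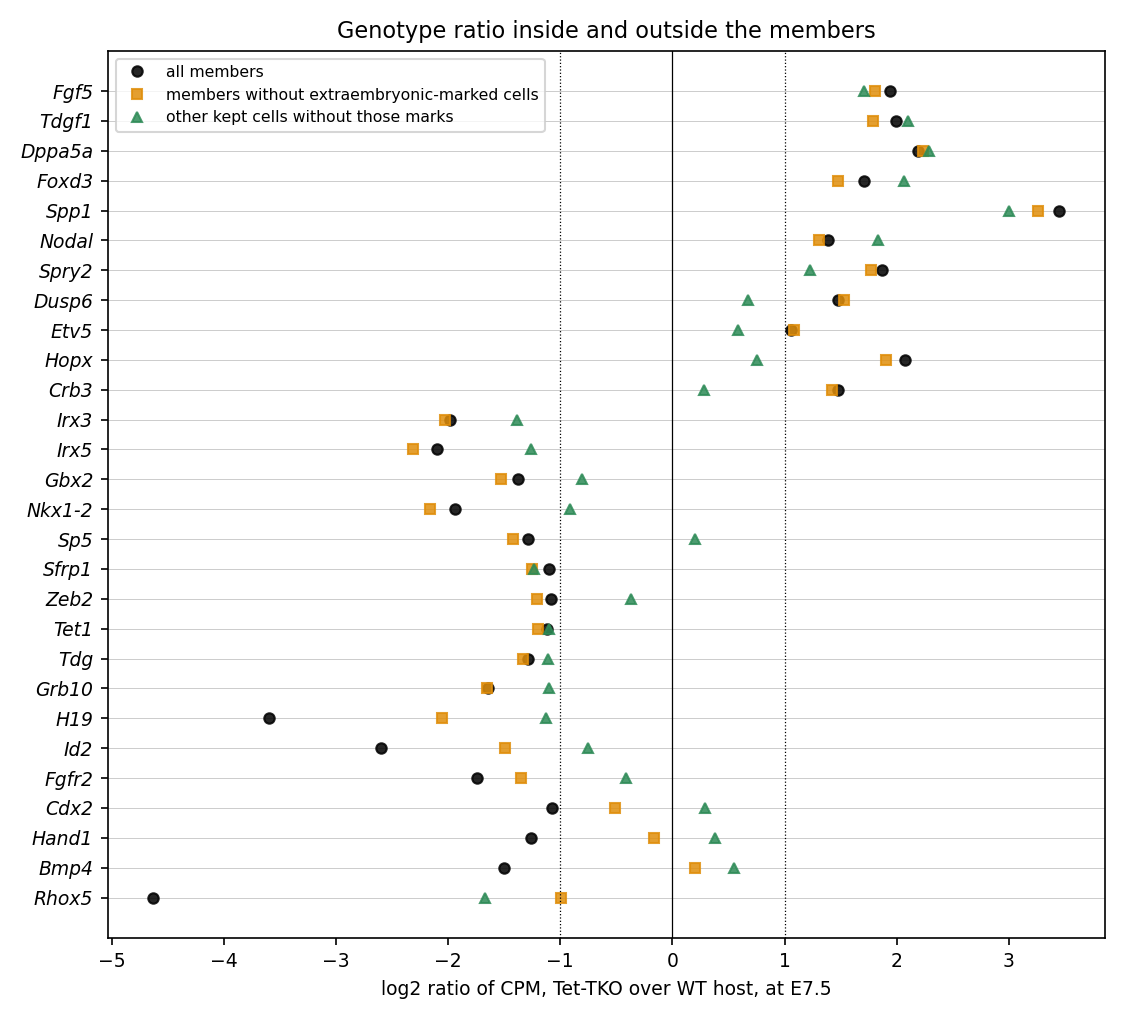
Log2 ratio of CPM, Tet-TKO over WT host at E7.5 (x axis), of 28 genes (y axis) in all members (black circles), in members without extraembryonic-marked cells (orange squares) and in other kept cells without those marks (green triangles). Dotted lines mark 2-fold. Bmp4 moves from -1.50 to 0.20 and Rhox5 from -4.63 to -0.99 when marked cells are left out, while Irx3 and Tdg move little.

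Some of the largest ratios belonged to genes that were also past 2-fold outside the members. Rps3a1, the gene of a ribosomal protein, had 335 CPM in Tet-TKO and 4659 CPM in WT host members, and Rps3a3, its near-identical processed copy, had 4688 and 88.3 CPM. Reads of such copies can be assigned to either, so neither value is a firm level. Outside the members the log2 ratio was -3.85 for Rps3a1 and 4.56 for Rps3a3. Wdfy1, an endosomal adaptor gene, had 52.5 and 3.89 CPM, a log2 ratio of 3.75, and 2.93 outside. Spata7, a photoreceptor cilium gene, had 246 and 22.7 CPM, a log2 ratio of 3.44, and 2.67 outside. Xist, the RNA that coats the inactive X chromosome, was at 2.58 and 174 CPM. All 3 measured genes of a list of sex and strain genes, Xist, Ddx3y and Eif2s3y, were past 2-fold lower in Tet-TKO members. The sexes in each group are not stated, so their part in X- and Y-linked ratios was not tested.

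Genes that set WT host members apart from all other kept WT host cells were read in both genotypes, as a description, since the rule had selected on the transcriptome. Pim2 had 181 CPM in WT host members and 22.6 CPM in the other cells, and 203 and 40.1 CPM in Tet-TKO. Platr10, a pluripotency-associated noncoding RNA, had 13.5 and 1.10 CPM in WT host, and 70.2 and 12.6 CPM in Tet-TKO. Six3 had 22.8 and 2.88 CPM, and 28.7 and 4.15 CPM. Elavl3, a neuronal RNA-binding protein gene, had 24.1 and 2.72 CPM in WT host and 7.27 and 1.04 CPM in Tet-TKO. Both genotypes thus had higher levels of these genes in members than in the rest, at levels that differed between the genotypes for Platr10 and Elavl3.

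Variation among the members was led by genes of several kinds. Variation was read in members thinned to 5000 UMIs as the Fano factor (variance over mean) divided by that of genes of like mean. In WT host members the leading genes included the visceral endoderm genes Ttr, Spink1, Apoa1 and Rbp4 and the ExE gene Rhox5, which is again the marked cells. Without them, the leading genes included Rps3a3, Malat1, Xist and Id1 in WT host and Malat1, Actb and Rps3a1 in Tet-TKO. Phlda2, an imprinted growth regulator, kept a relative Fano factor of 4.31 in WT host and 7.71 in Tet-TKO, in each case above other genes of like level. Trh, which encodes a hypothalamic hormone precursor also found in the early embryo, had 2.59 and 2.96, and the BMP target Id1 had 3.35 and 2.95. Tdgf1 had 2.36 in WT host and 1.49 in Tet-TKO. Values near 1 mean no more spread than other genes of the same level.

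Only at E8.5, when few cells meet the same rule, were there several libraries of each genotype. Whether the E8.5 cells that meet the rule are epiblast was not tested, so they are no replicates of the E7.5 members. The labels do not say whether these libraries came from separate pools of embryos, so their spread may be technical. Tet-TKO libraries 1 and 2 were the closest pair, with a chi-square per degree of freedom of 1.37 over genes. The other pairs had 3.02 to 13.9. Tet-TKO libraries 3 and 4 had 3.02 with each other and 7.03 to 10.6 with libraries 1 and 2. Tet-TKO libraries 1 and 2 had 4.96 to 7.07 with the WT host libraries. All 4 were counted as separate samples, though they fell into 2 such pairs and may be fewer independent samples. Cells that met the rule numbered 125, 98, 37 and 29 in the 4 Tet-TKO libraries (1.77%, 1.03%, 1.61% and 2.87%) and 151 and 38 in the 2 WT host libraries (1.83% and 0.420%). The groups overlapped. The mean share was 1.82% ± 0.768 (SD, n = 4) in Tet-TKO and 1.12% ± 0.995 (SD, n = 2) in WT host, a difference of 0.694 points (two-sided exact permutation test, p = 0.533, smallest possible 0.133). The difference was -0.0535 points at 5000 UMIs per cell, -0.0101 without WT host library 2 and 1.40 without WT host library 1. Their median depth was 20632, 15736, 50765 and 81816 UMIs in Tet-TKO and 16907 and 16919 UMIs in WT host, and after thinning to 5000 UMIs Tet-TKO libraries 3 and 4 held 0 such cells of 2228 and 921, which allows shares of up to 0.165% and 0.400%. Extraembryonic marks were found in 2, 2, 1 and 3 of these Tet-TKO cells and in 18 and 3 of the WT host cells.

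The streak-marked share as counted was higher in every Tet-TKO library than in both WT host libraries at E8.5. Of the cells with Pou5f1 and 3 of the 5 markers, 34.9%, 21.0%, 35.1% and 29.3% had a UMI of T, Mixl1 or Mesp1 in Tet-TKO, and 16.1% and 11.6% in WT host. The means were 30.1% ± 6.63 (SD, n = 4) and 13.9% ± 3.17 (SD, n = 2), a difference of 16.2 points. It is given as a description with no p, because the genes that mark these cells are those of the rule. These cells numbered 12 to 67 per Tet-TKO library and 29 and 5 in WT host. In ExE ectoderm-marked cells the share with a streak UMI was 31.6%, 13.6%, 20.8% and 23.7% in Tet-TKO (median 19660, 13362, 46704 and 77730 UMIs) and 9.57% and 10.4% in WT host (21710 and 17593 UMIs). What the marked Tet-TKO cells are was not tested, so they give no background for Tet-TKO at this stage either. At 5000 UMIs per cell the streak-marked share was 2 of 19 and 0 of 11 cells in Tet-TKO libraries 1 and 2 and 3 of 21 and 0 of 5 in WT host. Tet-TKO libraries 3 and 4 had no cells left, so at equal depth too few cells remained to compare.

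Few genes passed the test between genotypes in these E8.5 cells. In a quasi-likelihood fit by edgeR, with p adjusted (Benjamini-Hochberg) over 10038 genes, 13 were higher (0.130%) and 8 lower (0.0797%) in Tet-TKO at an adjusted p below 0.01 and a 2-fold change. Rps3a1 was counted at 272, 245, 375 and 274 CPM against 5090 and 4850 CPM in WT host, a log2 fold change of -4.10 (SE 0.15, adjusted p 7.86e-07). Its reads and those of its near-identical copy Rps3a3 can be assigned to either gene, so this is no firm change in its level. Wdfy1 rose to 51.8, 41.4, 49.7 and 50.1 CPM against 5.06 and 5.82 CPM, a log2 fold change of 3.19 (SE 0.26, adjusted p 0.000361). Snrpn rose to 338, 265, 287 and 299 CPM against 123 and 108 CPM, a log2 fold change of 1.35 (SE 0.17, adjusted p 0.00537). For each of these genes the libraries of the genotypes did not overlap, and the direction was that of the E7.5 members. Spata7 also rose, by 2.81 on the log2 scale (adjusted p 0.00164). Leaving out either WT host library left 1 WT host sample, so the spread in those fits came from the Tet-TKO libraries alone. Wdfy1, Snrpn and Spata7 then missed the threshold, which says little about them, while their log2 fold changes stayed between 1.28 and 3.39.

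The patterning genes Irx3 and Sfrp1 did not pass the edgeR test at E8.5, and the rule genes Fgf5 and Pou5f1, on which the cells were chosen, are given as levels only. Fgf5 had 21.8, 18.5, 5.07 and 4.11 CPM in Tet-TKO and 7.95 and 4.37 CPM in WT host, so the groups overlapped. Irx3 had 83.6, 91.7, 78.5 and 90.7 CPM against 88.2 and 84.4 CPM, also overlapping (log2 fold change -0.01, adjusted p 0.997). Sfrp1, lower in Tet-TKO members at E7.5, had 222, 255, 251 and 225 CPM against 198 and 175 CPM, with each Tet-TKO library above both WT host libraries (log2 fold change 0.34, adjusted p 0.531). Pou5f1 had 167, 141, 59.3 and 32.8 CPM against 137 CPM in both WT host libraries with the lower values in the 2 deepest libraries.

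Tdg and Tet1, lower in members at E7.5, were below both WT host libraries in every Tet-TKO library at E8.5, as were 11.4% of all genes tested, but did not pass the edgeR test. Gadd45b overlapped between the groups. Tdg had 36.6, 33.8, 61.3 and 73.9 CPM in Tet-TKO and 88.2 and 88.8 CPM in WT host (log2 fold change -0.79, adjusted p 0.414). Tet1 had 13.3, 15.9, 32.9 and 30.4 CPM against 35.4 and 43.7 CPM (log2 fold change -0.75, adjusted p 0.546). Of the imprinted genes Zdbf2 had 115, 108, 206 and 170 CPM against 46.6 and 56.8 CPM, apart in every library (log2 fold change 1.55, adjusted p 0.0310). Dppa4, Tdgf1, Foxd3, Spp1 and Nodal were too low in these cells to be tested.

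**Figure D5:**
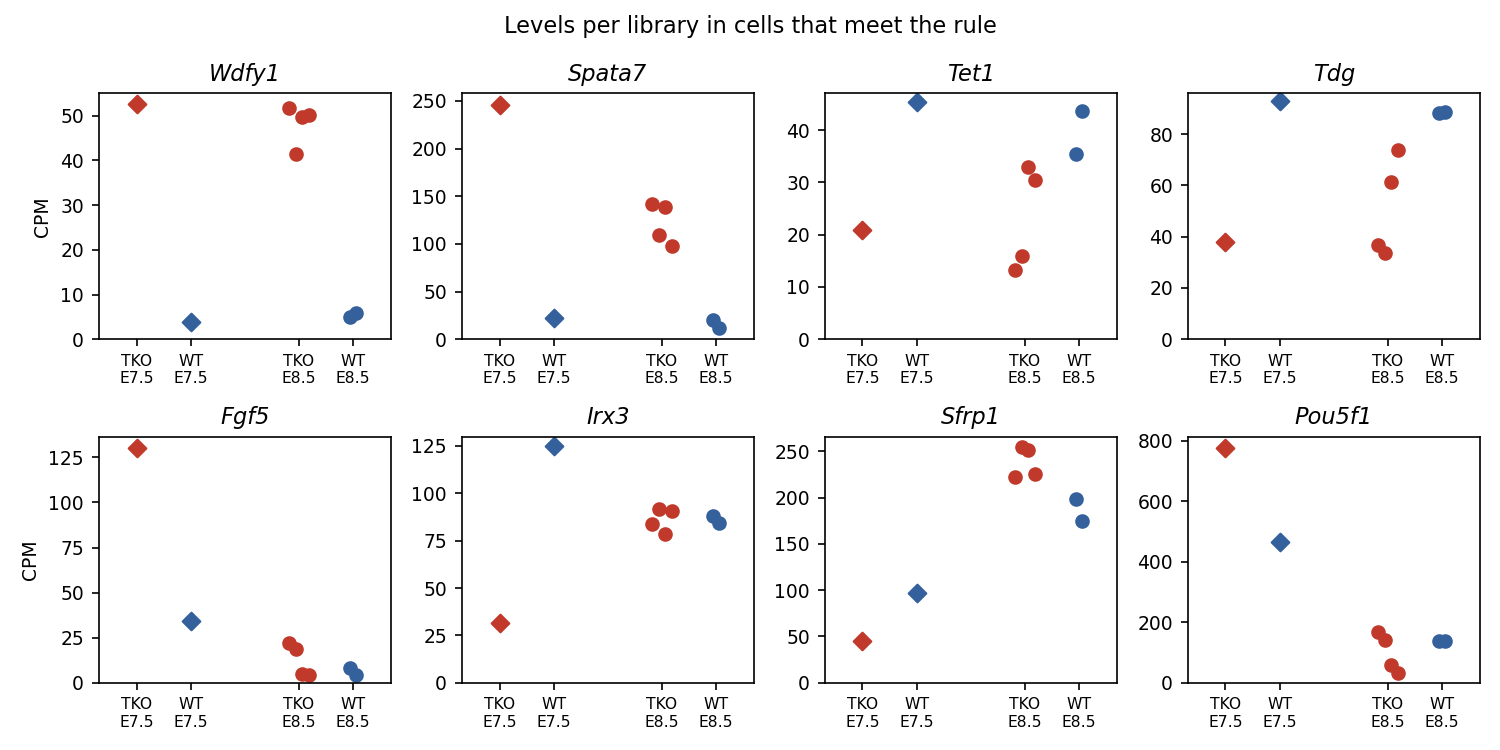
Level in CPM (y axis) of 8 genes in the summed cells that meet the rule, per library (x axis), at E7.5 (diamonds, 1 library per genotype) and E8.5 (circles, 4 Tet-TKO libraries in red and 2 WT host libraries in blue). Wdfy1 and Spata7 are apart by genotype at both stages, and Irx3 differs at E7.5 and overlaps at E8.5. Sfrp1 has the opposite order at the 2 stages, without passing the test at E8.5.

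The E7.5 ratios were then followed as a group at E8.5. All 4 Tet-TKO libraries lay above both WT host libraries in 9.0% of the 10038 genes tested and below both in 11.4%. Of the 66 genes higher in E7.5 members, 55 were tested at E8.5 and 34 (61.8%) were apart in the same direction, with 13 passing the test. The 66 hold tdTomato, whose direction the sort had set in advance. They also hold Rps3a3, and the 162 lower genes hold Rps3a1, neither with a firm level. The shares were not recounted without these genes. Of those also higher in other kept E7.5 cells, 28 of 32 (87.5%) were apart, and the 13 that passed were among them. Of those under 2-fold there, 6 of 23 (26.1%) were apart. Of the 162 lower genes, 153 were tested and 68 (44.4%) were apart in the same direction, with 7 passing. These shares were 41 of 64 (64.1%) for genes also lower in other E7.5 cells and 27 of 89 (30.3%) for the others. Of the lower genes past 2-fold with and without marked cells, 49 of 81 (60.5%) were apart. Those also lower in other E7.5 cells gave 34 of 46 (73.9%) and the others 15 of 35 (42.9%). Of such higher genes, 32 of 51 tested (62.7%) were apart.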

How the data were processed

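The deposited files held unscaled UMI counts of each gene in each cell, which the authors made with Cell Ranger from reads mapped to mm10 with the tdTomato sequence added. Only barcodes called as cells were deposited, and doublets were not stated as removed. A gene counted at its 3′ end cannot be split between near-identical copies.

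Cells were kept at 1500 UMIs or more, at most 30% mitochondrial and at most 35% ribosomal protein UMIs. Counts of members were summed per library and scaled to CPM. E7.5 genes with a mean of at least 10 CPM were measured, and a log2 ratio of 1 or more in size was past the line. Library sums at 0 were set to a floor of 3 counts. Sums of E8.5 cells, with at least 10 cells per library, were tested with edgeR 4.0.16 (glmQLFit and glmQLFTest, TMM scaling, filterByExpr) at an adjusted p of 0.01. The test and thresholds are those the study names, but the study did not test sums of cells. DESeq2 1.42.0 was an alternative, in R 4.3.3. Shares were handled in Python 3.11.15 with SciPy 1.17.1, and doublets scored with Scrublet in Scanpy 1.11.5. The scripts were tested on simulated data.

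The genes named were drawn from sets chosen by rule, and not every gene of a set is given in the text. The sets were the rule genes, Tet1 to Tet3 and tdTomato, and up to 4 genes per list with the largest ratio. They also held the 12 highest and 12 lowest ratios at a mean of at least 20 CPM. Sex-linked, mitochondrial, ribosomal, rule and extraembryonic or erythroid marker genes were left out of those extremes. Most of the 12 lowest, such as Anxa5 and Trap1a, are not given in the text. The last sets were the 15 most variable genes in WT host members and the 10 highest there over the other cells. Irx5 and Rps3a1 were added by the same rule without extraembryonic-marked cells, and Cdh1, Dnmt1, Dnmt3a, Nanog, Otx2, Sox2, Snrpn and Zdbf2 were named after their values were seen. The members, the lists and the extraembryonic marks were chosen with earlier results of these data known. Alternatives were thinning, other filters and scalings, marked cells left out, Scrublet doublets left out, subtraction of free RNA estimated from visceral endoderm transcripts, and each E8.5 library left out.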

Additional observations from a re-analysis of the deposited data

Results flagged for a closer look

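Among the E8.5 cells that met the rule, the share that was extraembryonic-marked was 1.60%, 2.04% and 2.70% in Tet-TKO libraries 1 to 3 and 10.3% in library 4, a sample far from the others. It rests on 3 of 29 cells in the deepest library. Chance flags about 1 in 20 such groups, and 13 groups of 4 libraries were looked at.

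Sfrp1 was lower in Tet-TKO members at E7.5 (log2 ratio -1.10) and had a log2 fold change of 0.34 at E8.5. There every Tet-TKO library lay above both WT host libraries, as in 9.0% of all genes tested, and Sfrp1 did not pass the edgeR test. The difference between the stages was not tested.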

How the results depend on the processing

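The difference in the share of members at E7.5 (Tet-TKO minus WT host, -0.855 points as counted) was 5.88 points at 5000 UMIs per cell, -5.71 without cells of 4 ExE ectoderm or visceral endoderm markers, -6.02 without extraembryonic-marked cells and 2.24 with the first and last together. It was 14.8 with T, Mixl1 and Mesp1 allowed, 2.90 with 4 and -2.58 with 2 of the 5 markers required, and 1.04 in cells whose tdTomato matched the sort. At E8.5 the share difference (0.694 points) was -0.0535 at 5000 UMIs and ran from -0.0101 (without WT host library 2) to 1.40 when each library was left out.

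The 228 genes past 2-fold at E7.5 became 1084 at a mean of at least 1 CPM (350 higher, 734 lower) and 46 at 50 CPM (17 and 29). After subtraction of free RNA they became 491 (150 and 341). That estimate rests on 436 visceral endoderm UMIs in Tet-TKO members and 6031 in its kept cells, and is no firm share. In WT host it falls from 13.7% to 4.05% without marked members. List genes past the line went from 34 to 73 at 1 CPM and 12 at 50 CPM. Of the named genes past 2-fold, signs turned for Tdgf1 (-0.57, free RNA), Sp5 (0.46, streak genes allowed), Hand1 (0.22, thinned), Bmp4 (0.20) and Tex19.1 (1.50), both without marked cells. Of those under 2-fold, Fgf8 (no Tet-TKO counts above the floor of 3) and Eomes (-1.31) turned with free RNA subtracted, and others with ratios between -0.15 and 0.33, Otx2 and Pou3f1 among them, turned in at least 1 setting.

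The 21 genes called at E8.5 became 34 with DESeq2, 175 without a filter on low counts and 3 to 23 when each library was left out. With the replicate number as a block, libraries 1 and 2 of each genotype gave 55 calls, and the same 4 libraries without the block 125. Deviations of the libraries numbered 1 correlated at 0.0248, a single value that does not show that the numbers pair the samples, and no label says so. Irx3 (-0.01) became 0.02 without a filter, 0.05 with the block and 0.06 in those 4 libraries, with -0.05 to 0.05 when each library was left out (0.05 without Tet-TKO library 3, 0.04 without WT host library 1). The cause of these changes was not tested. Alternatives concerning marked cells and the 4 libraries without a block were chosen after seeing the data. With 1 library per genotype, no E7.5 value has a replicate check.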

Other observations

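Gdf3, a TGF-beta family ligand of pluripotent cells, fell below the limit for measured genes, with 15.9 CPM in Tet-TKO and 0.911 CPM in WT host members at E7.5, and was named after its values were seen. The E7.5 members without extraembryonic-marked cells still held 103 CPM of visceral endoderm transcripts in WT host against 24.7 CPM in Tet-TKO, and 29.6 against 1.53 CPM of erythroid transcripts, of which Hbb-bh1, an embryonic globin gene, gave 20.2 CPM in all WT host members. The part these transcripts have in the other ratios was not tested.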
